A study of Mus musculus with 18 samples.

Results

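The genes described here are 8 genes of zinc handling: 4 ZIP importers (Slc39a4, Slc39a5, Slc39a8 and Slc39a14), 2 ZnT exporters (Slc30a1 and Slc30a10) and 2 metallothioneins (Mt1 and Mt2). They were selected on measured values of these same samples, because a Slc39a5 probe had been seen to differ between DSS-treated and naive WT epithelium. The DSS comparison in WT, and other comparisons of Slc39a5 that use the same samples, are therefore given below as a description without a test. All probes carrying one of these 8 symbols were taken, each probe apart, which gave 16 of the 45281 probes on the array and 8 of 30869 gene symbols. Of the 16 probes, 14 were detected (p-value of detection below 0.05) on 4 or more arrays and were tested among 21938 probes.

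mRNA was measured on Illumina MouseWG-6 arrays in colon epithelial cells sorted by flow cytometry as EpCAM+CD45-CD3- cells that also lacked a macrophage surface antigen, from WT and Mbd2KO mice, with or without 2% DSS. Mbd2 is a protein that binds methylated DNA, and its deficiency here was global and not restricted to the epithelium. DSS, dextran sulfate sodium, damages the colonic epithelium and was given in drinking water for 6 days. The mice were on a C57BL/6 background and 8 to 22 weeks old, and one replicate could pool several animals. The groups were DSS_WT (WT, 2% DSS), DSS_KO (Mbd2KO, 2% DSS), Naive_WT (WT, no DSS) and Naive_KO (Mbd2KO, no DSS), with 4 samples each. Replicate 4 of DSS_WT and replicate 5 of DSS_KO were run on 2 arrays, which were averaged, so that 18 arrays gave 16 samples.

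Zinc is a cofactor of many enzymes and transcription factors, and cells keep free zinc low. ZIP proteins move zinc into the cytosol from outside the cell or from vesicles, ZnT proteins move it out, and metallothioneins are small cysteine-rich proteins that bind it. In the gut, Slc39a4 (ZIP4) takes up dietary zinc at the apical membrane, Slc39a5 (ZIP5) lies at the basolateral membrane of enterocytes, and Slc30a1 (ZnT1) exports zinc across the plasma membrane. Free zinc activates the factor Mtf1, which binds metal response elements in the promoters of Mt1, Mt2 and Slc30a1.

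The probes of Slc39a5 and of Slc39a4 differed in their values, so they are shown with the first 30 of their 50 bases, 5′ to 3′. The name is followed by the gene and by the start of the probe in its transcript record.

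ILMN_3071741, Slc39a5, position 3: acgtggcttccactgcatctgaaggctgag

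ILMN_2705424, Slc39a5, position 88: agggaggcggaacaagcttgagaggtgggt

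ILMN_3150519, Slc39a5, position 1589: ccctgggtgtttgggaccacggctggggtt

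ILMN_2735308, Slc39a5, position 1956: caccacaggaatggaggcgggacacagggc

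ILMN_1215938, Slc39a4, position 211: cctggaactggacggcctgttaaatacgct

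ILMN_1226293, Slc39a4, position 2050: gtacgaagacaacatcaccttctgacagct

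All 4 Slc39a5 probes lie on the minus strand of chromosome 10 in the coordinates of the array table, whose genome build is not given in the sources used here. ILMN_3071741 was placed at chr10:127803414-127803463 and was annotated as specific to 1 isoform. ILMN_3150519 was placed at chr10:127799420-127799469 and was annotated as common to all isoforms, and ILMN_2735308 at chr10:127798902-127798951. ILMN_2705424 was placed at chr10:127837385-127837434, 33922 bases from the next Slc39a5 probe, whereas the whole RefSeq gene spans 5350 bases in GRCm38.p6. That probe was 3340 bases from the nearest probe of Nabp2 in the same coordinates. RefSeq (GRCm38.p6) gives 2 transcription starts for Slc39a5, and the whole of ILMN_3071741 was found from base -50 to base -1 before the downstream start. It was not in the window of the upstream start, and the other 3 probes were in neither window. As placed there, ILMN_3071741 reads transcripts that begin upstream of the downstream start. The Slc39a4 probes lie on the minus strand of chromosome 15, at chr15:76447022-76447071 for ILMN_1215938 and chr15:76442939-76442988 for ILMN_1226293.

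Values are log2 normalised signals, and they can be compared between samples at 1 probe but not between probes, because each probe has its own brightness. The mean intensity of the negative controls was between 101 and 134 on the 18 arrays, and 18851 to 20618 probes were detected. All 10 epithelial identity genes were detected on every array. The only Mbd2 probe, ILMN_2676806, failed the detection filter and read 4.31 to 4.68 in all 4 groups, so it gave no check of the genotype labels. A change in bulk RNA of sorted cells cannot tell fewer cells of a type from less RNA per cell.

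Slc39a5 stood out at 1 of its 4 probes, ILMN_3071741, the probe on which the genes were selected. A probe was called at an adjusted p under 0.01 and a log2 fold change of at least 1 in size. At ILMN_3071741 the 4 DSS_WT samples (replicates 1, 2, 3 and 4) were at 6.53, 4.62, 5.63 and 4.47. The 4 DSS_KO samples were at 8.22, 7.24, 7.51 and 7.50, so that the 2 groups did not overlap. Naive_WT samples were at 8.09, 7.04, 8.61 and 6.71, and Naive_KO samples at 7.64, 7.55, 7.65 and 7.32. DSS_WT thus lay below every other sample, while the means of Naive_KO (7.54), Naive_WT (7.61) and DSS_KO (7.62) differed by less than their SDs of 0.15, 0.89 and 0.42.

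**Figure D1:**
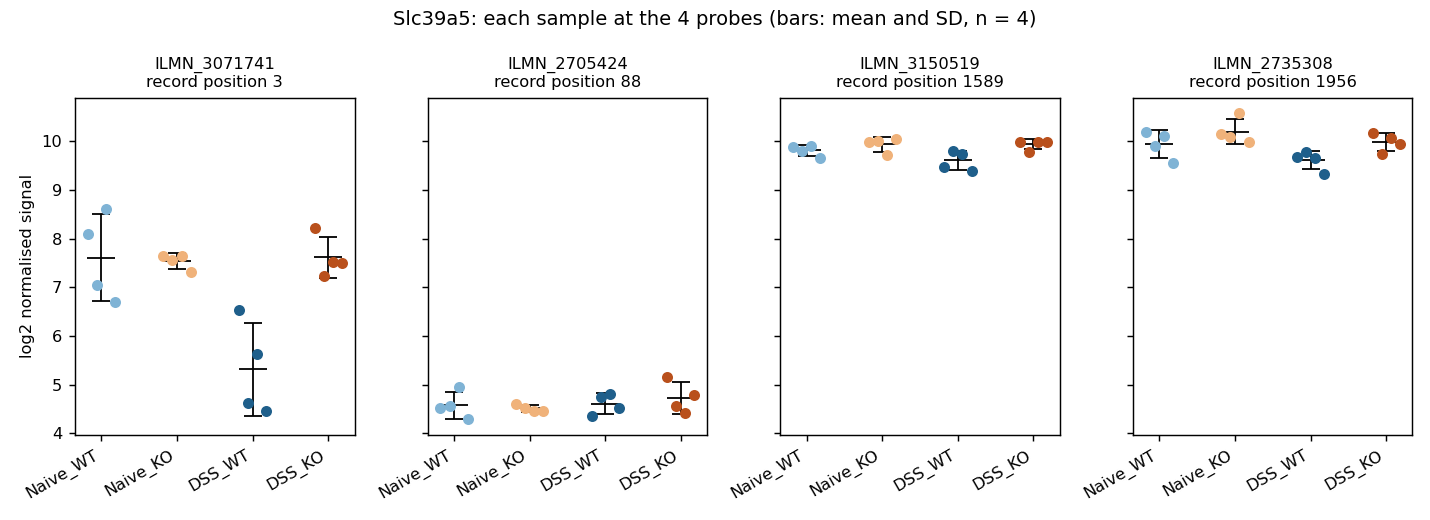
Log2 normalised signal of the 16 samples at each of the 4 Slc39a5 probes, by group, with the mean and SD of 4 samples. DSS_WT stands apart at ILMN_3071741 alone, at 4.47 to 6.53, while at ILMN_3150519 and ILMN_2735308 all samples were between 9.34 and 10.58.

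The unprocessed intensities at this probe were near background in DSS_WT. It was detected on 2 of the 5 DSS_WT arrays, those of replicates 1 and 3 with intensities of 218 and 167, and not on replicate 2 (125) or either array of replicate 4 (116 on each). It was detected on all 13 arrays of the other groups, where intensities ran from 173 to 401. The DSS_WT mean therefore rests partly on values at background, and the fold changes that use it depend on how background is handled.

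With DSS, ILMN_3071741 was 4.94-fold higher in Mbd2KO than in WT (log2 fold change 2.31), a size that rests on DSS_WT values measured above background on 2 of 5 arrays. In WT the difference between DSS and naive was -2.30 on the log2 scale. Without background correction the 2 values were 1.09 and -1.12, both short of the threshold. Both differences use the DSS_WT values that selected the gene, so they are given as a description with no test, and nothing is read from their counts. In each comparison it was the 1 of 14 member probes past the threshold, where 0.862% and 1.74% of all tested probes were called. At an adjusted p below 0.05 alone, the shares of all probes were 5.63% and 10.5%, with the same 1 member probe in each.

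The only comparison of this probe that shares no sample with its selection is DSS against naive in Mbd2KO. There the log2 fold change was 0.08 (95% interval -0.81 to 0.97, adjusted p = 0.934, limma) and did not pass. Mbd2KO minus WT without DSS, which uses the Naive_WT samples of the selection, was -0.07. The interaction, the DSS effect in Mbd2KO minus that in WT, was 2.38, again with the selecting samples in it. No probe of the whole array passed the interaction test at either threshold (0% called). Before adjustment, 1 of 14 member probes (ILMN_3071741) and 10.7% of all probes had an interaction p below 0.05 in the limma fit, and nothing is read from that 1 probe, since its selecting values enter the interaction.

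The brighter Slc39a5 probes gave much smaller differences. At ILMN_2735308 DSS_WT samples were at 9.68, 9.77, 9.67 and 9.34 and DSS_KO samples at 10.18, 9.75, 10.06 and 9.95. Naive_WT samples were at 10.19, 9.89, 10.12 and 9.56, and Naive_KO samples at 10.14, 10.10, 10.58 and 9.98. DSS_WT had the lowest group mean here too, but it overlapped DSS_KO and Naive_WT. As a description, the log2 difference of Mbd2KO from WT with DSS was 0.37 there and 0.33 at ILMN_3150519. The DSS-naive difference in WT was -0.33 and -0.21 at these 2 probes, and 0.08 and 0.20 with arrays scaled to a common median (-0.17 and -0.05 relative to the shift of all probes), so its direction depends on the scaling. In Mbd2KO, whose samples did not select the gene, the difference with DSS was -0.21 (-0.55 to 0.13, adjusted p = 0.447, limma) at ILMN_2735308 and -0.01 (-0.25 to 0.24, adjusted p = 0.984) at ILMN_3150519. With median scaling these were 0.17 and 0.38. ILMN_2705424 failed the filter, being detected on 2 of 18 arrays with values of 4.29 to 5.15.

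The disagreement between probes was measured within each sample as the log2 signal of ILMN_3071741 minus that of ILMN_2735308. DSS_WT samples gave -3.15, -5.15, -4.04 and -4.87, and DSS_KO samples -1.96, -2.51, -2.55 and -2.45. In Mbd2KO, where no sample had served to select the gene, this difference averaged -2.37 with DSS and -2.66 without, a change of 0.29 (exact permutation test, two-sided, p = 0.143, n = 4 per group, smallest possible p = 0.0286). In WT the averages were -4.30 and -2.33, a change of -1.97, given as a description.

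**Figure D2:**
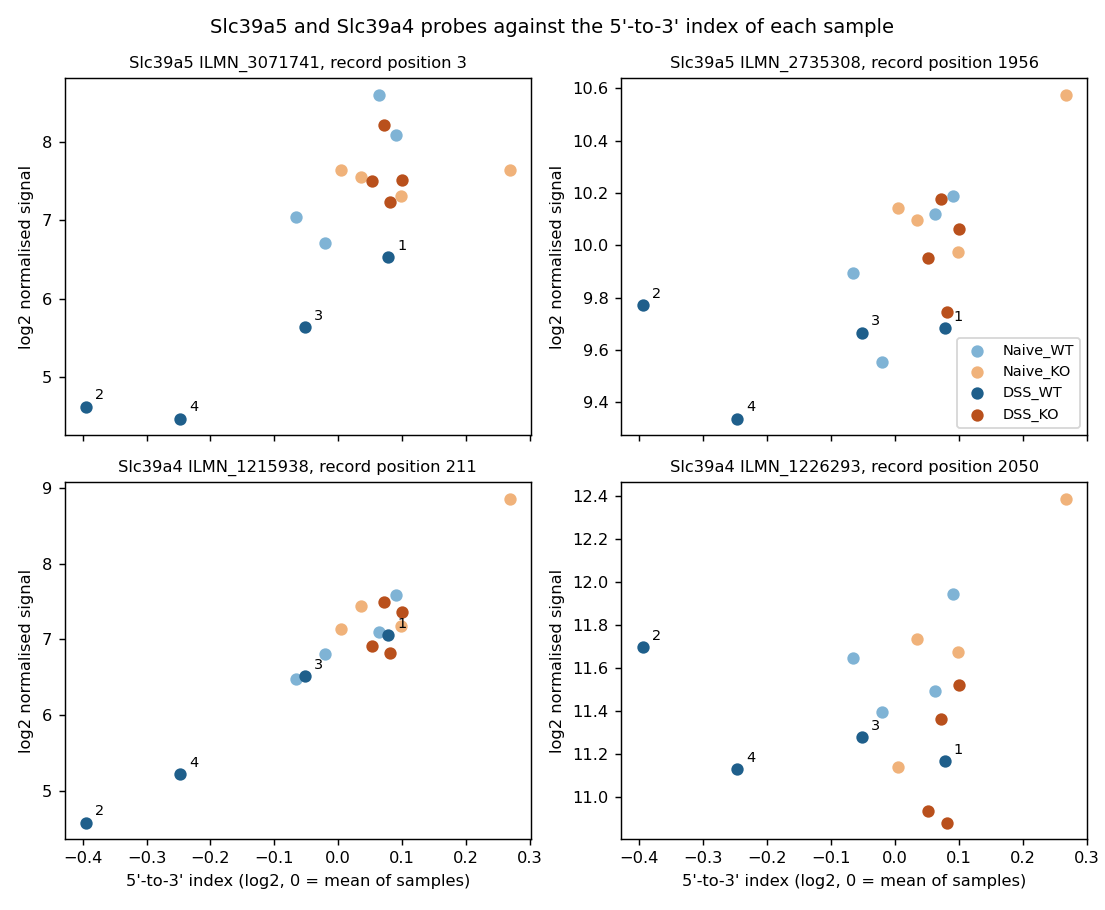
Log2 normalised signal of a probe near the start of its record (left) and one near its end (right) for Slc39a5 (top) and Slc39a4 (bottom), against the 5′-to-3′ index of each of the 16 samples, with DSS_WT replicates numbered. DSS_WT replicates 2 and 4 have the lowest indices, -0.395 and -0.247, and the lowest values at ILMN_1215938.

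Slc39a4 showed a similar split along its record. At ILMN_1215938, near the start, DSS_WT samples were at 7.06, 4.59, 6.52 and 5.23 and DSS_KO samples at 7.49, 6.83, 7.36 and 6.91. Replicates 2 and 4 of DSS_WT were the lowest of all 16 samples, and replicates 1 and 3 lay within the range of the naive samples, which was 6.48 to 8.85. With DSS the log2 fold change between genotypes was 1.30 (0.33 to 2.27, adjusted p = 0.105, limma), and the DSS-naive difference in WT was -1.15. Replicate 2 of DSS_WT was not detected at this probe (intensity 123), and the genotype difference was 0.57 without background correction and 0.88 without that replicate. At ILMN_1226293, near the end, the DSS_WT samples were at 11.17, 11.69, 11.28 and 11.13 and the DSS_KO samples at 10.88 to 11.52. There the genotype difference with DSS was -0.14 (-0.61 to 0.33, adjusted p = 0.766). In Mbd2KO this probe was lower with DSS by a log2 fold change of -0.56 (-1.03 to -0.09), which did not pass (adjusted p = 0.129). For Slc39a4 at this probe the value was -0.16 with median scaling (-0.41 relative to the shift of all probes) and -0.34 without Naive_KO replicate 15. The order of the group means there was Naive_KO (11.73), Naive_WT (11.62), DSS_WT (11.32) and DSS_KO (11.17), with SDs of 0.51, 0.24, 0.26 and 0.31, and the ranges of neighbouring groups overlapped.

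Coverage along transcripts was therefore measured in every sample. The labelling used a poly(A)-primed amplification, which reads transcripts from the 3′ end. For 1157 transcript records of other genes with 2 tested probes at least 1000 bases apart, the 5′ probe minus the 3′ probe was centred over samples, and the median over records was taken as a 5′-to-3′ index. DSS_WT replicates 1 to 4 had indices of 0.078, -0.395, -0.052 and -0.247, and the 12 samples of the other groups lay between -0.066 and 0.268. Replicates 2 and 4 of DSS_WT thus had the weakest 5′ signal on the array as a whole. Over these records, the median log2 fold change between genotypes with DSS was 0.14 at the 5′ probes and -0.05 at the 3′ probes. Of the 1157 5′ probes 8 were called there, all higher in Mbd2KO, and of the 3′ probes 1, which was lower. Neither share exceeds the 0.862% of all tested probes called there. For DSS against naive in WT, which uses the same DSS_WT samples, the medians were -0.15 and 0.02, with 6 of the 5′ probes and 15 of the 3′ probes called, 5 of them lower in each case. Both shares are below the 1.74% of all tested probes called there.

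The member probes differed in how closely they followed this index over the 16 samples, which share the arrays and their normalisation. Pearson's r was 0.96 at ILMN_1215938 (Spearman's rho 0.80) and 0.81 at ILMN_3071741 (rho 0.58), given as a description with no test. At the other probes of these genes r was 0.24 for ILMN_1226293, 0.31 for ILMN_3150519 and 0.66 for ILMN_2735308. The indices of DSS_WT replicates 1 and 3 were within the range of the other groups, and at ILMN_3071741 these samples were at 6.53 and 5.63.

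With the index as a covariate, the genotype difference of Slc39a5 at ILMN_3071741 with DSS was 1.42 in place of 2.31 and short of the threshold. Without DSS_WT replicates 2 and 4 it was 1.54, also short of it. The corresponding DSS-naive differences in WT were -1.64 and -1.53. For ILMN_1215938 the genotype difference with DSS became -0.02 with the covariate and 0.36 without these 2 samples. Its DSS-naive difference in WT went from -1.15 to -0.17 and -0.21 under these settings, and to -0.49 without background correction. Over the whole array, probes called between genotypes with DSS went from 189 to 8 under either setting. Leaving out 1 sample gave counts from 46 (DSS_KO replicate 5) to 216 (Naive_KO replicate 16). The parts of coverage and of fewer samples or an added term in the fall to 8 were not tested. ILMN_3071741 was also short of the threshold between genotypes with DSS without DSS_WT replicate 2, DSS_WT replicate 4, DSS_KO replicate 5, DSS_KO replicate 7 or DSS_KO replicate 8, each in turn (log2 fold changes of 2.07, 2.02, 2.11, 2.34 and 2.34).

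Markers of stromal cells also differed between the genotypes with DSS. The mean log2 signal of 8 endothelial genes was 6.83 to 7.29 in DSS_WT and 6.02 to 6.39 in DSS_KO, and that of the 7 tested of 8 smooth muscle genes was 9.57 to 10.15 and 8.01 to 9.14. The 8 fibroblast genes were at 8.56 to 9.20 in DSS_WT and 7.83 to 8.70 in DSS_KO, which overlapped. Without DSS the endothelial genes were also lower in Mbd2KO, at 6.47 to 6.86 in Naive_WT and 6.01 to 6.40 in Naive_KO. There the smooth muscle genes were at 9.17 to 10.17 and 8.71 to 9.32, and the fibroblast genes at 7.71 to 8.56 and 7.65 to 8.17, both overlapping. The epithelial identity genes were at 11.77 to 11.88 in DSS_WT and 11.87 to 12.09 in DSS_KO. The 9 colonocyte genes, markers of the absorptive cells, were at 10.01 to 10.85 in DSS_WT and 9.49 to 10.58 in DSS_KO, with 0 of 12 probes called and 4 lower at an adjusted p below 0.05. The shares of all probes were 0.862% and 5.63%. The part of these cells in the Slc39a5 and Slc39a4 values was not tested.

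The other genes with the most similar pattern over the 16 samples were found by Pearson's r. For ILMN_3071741 they were Siat7f (r = 0.959), a sialyltransferase, Slc1a5 (0.955), a neutral amino acid transporter, and Trp53i11 (0.950). These 3 probes had correlations with the index of 0.89, 0.88 and 0.72. For ILMN_2735308 the nearest were Prpsap2 (0.941), Bpnt1 (0.923) and Fuz (0.906), with correlations with the index of 0.77, 0.83 and 0.77.

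No metallothionein probe was called in any comparison. Mt1 was higher with DSS in Mbd2KO at an adjusted p below 0.05 but short of the threshold for a call, and Mt2 passed neither. Mt1 (ILMN_2596522, chr8:96704156-96704205) was among the brightest probes of the array, ranking between 53 and 382 of 21938 in the 16 samples. Its Naive_KO samples were at 14.05, 13.74, 13.00 and 13.88, and its DSS_KO samples at 14.41, 14.54, 14.39 and 14.19, all above every Naive_KO sample. Naive_WT samples were at 13.89, 13.91, 14.02 and 13.50, and DSS_WT samples at 14.50, 14.43, 13.96 and 14.00, so that the WT groups overlapped. In Mbd2KO, Mt1 was 1.64-fold higher with DSS (log2 fold change 0.71, 0.30 to 1.13, adjusted p = 0.0307, limma). It was the only member probe at an adjusted p under 0.05 in that comparison, a share of 1 in 14 that is below the 9.42% of all probes, and no member probe was called there, against 1.72%. Before adjustment 3 member probes had p below 0.05 in that comparison, those of Mt1 and Mt2 and ILMN_1226293 of Slc39a4, which is 21.4% of members against 24.5% of all probes. In WT the difference was 0.39, and the interaction was 0.32 (-0.27 to 0.91, adjusted p = 0.734), so a difference in response between genotypes was not shown.

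Mt2 (ILMN_1219154) was much nearer background. Its Naive_KO samples were at 7.28, 6.81, 5.81 and 6.38 and its DSS_KO samples at 7.99, 7.24, 7.45 and 7.30, which overlapped only through Naive_KO replicate 13. Naive_WT samples were at 6.18, 6.75, 6.66 and 5.38, and DSS_WT samples at 7.25, 7.64, 6.81 and 6.58. In Mbd2KO the log2 fold change with DSS was 0.92 (0.23 to 1.61, adjusted p = 0.0881, limma), and in WT the difference was 0.83. Over the 16 samples Mt1 and Mt2 correlated with r = 0.85 (rho 0.80). Their probes share a run of at most 4 bases.

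**Figure D3:**
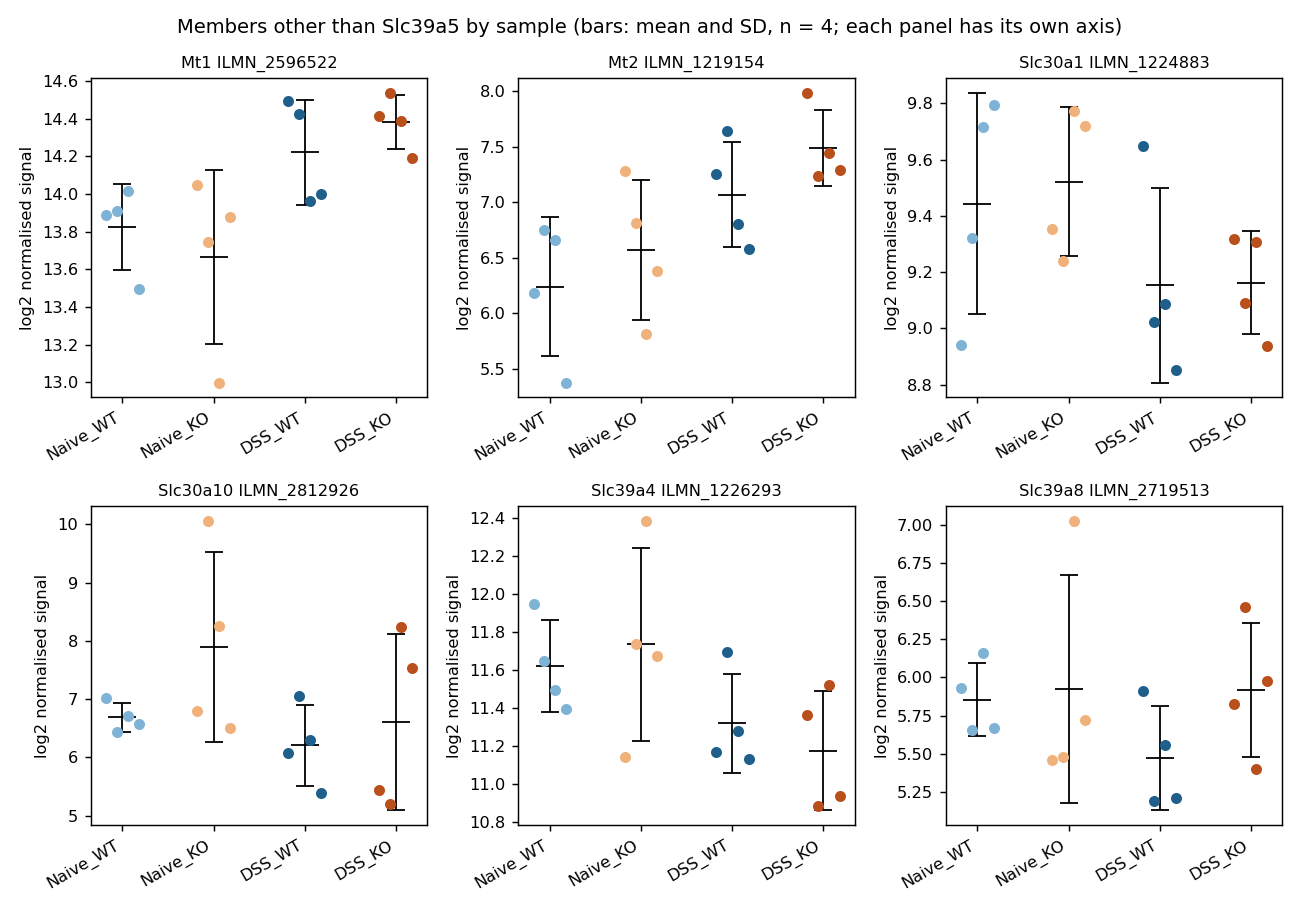
Log2 normalised signal of the 16 samples at 6 member probes, by group, with the mean and SD of 4 samples and a separate axis for each panel. At Mt1 the DSS_KO samples, at 14.19 to 14.54, lie above all Naive_KO samples, while the WT groups overlap at Mt1 and Mt2, and Slc30a10 varies most within DSS_KO and Naive_KO.

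These values moved with the normalisation. Scaling arrays to a common median moved the median of all probes by 0.25 in each DSS comparison. On that scale the log2 fold change in Mbd2KO was 0.99 for Mt1 (adjusted p = 0.00684, limma) and 1.20 for Mt2 (adjusted p = 0.00756), which is 0.74 and 0.95 relative to that shift. Without background correction Mt2 was at 0.51 (adjusted p = 0.078), so its value moved in both directions with the processing. With median scaling Mt2 was called and Mt1 was just under the limit on the fold change. The adjusted p of Mt1 passed 0.05 without DSS_KO replicate 5, 6 or 7 or Naive_KO replicate 14 or 15 (0.0701, 0.0804, 0.0558, 0.0573 and 0.0713), without the detection filter (0.0594) and with only the Mbd2KO groups in the fit (0.0618).

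Markers of other cells also differed with DSS in Mbd2KO. The mean log2 signal of the 6 tested of 8 macrophage and monocyte genes was 6.38 to 7.33 in Naive_KO and 8.02 to 8.11 in DSS_KO, and that of the 5 tested of 7 neutrophil genes was 5.28 to 5.81 and 6.72 to 8.44. Itgam, Fcgr1, Ly6g and Cxcr2, all defining markers of these cells, failed the filter, as did Ptprc, the gene of the CD45 antigen used to remove immune cells. The colonocyte genes were at 10.41 to 11.26 in Naive_KO and 9.49 to 10.58 in DSS_KO, with 2 of 12 probes called lower, where 1.72% of all probes were called. The part of these cells in the metallothionein values was not tested.

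The stretches of 250 bases before the RefSeq starts of Mt1 and Mt2 are shown because the signals of these neighbouring genes correlated over the samples (GRCm38.p6, plus strand, 5′ to 3′). Capitals mark the core of the metal response element, searched as TGCACNC or TGCGCNC on both strands with overlaps allowed.

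Mt1, chr8:94178839-94179088: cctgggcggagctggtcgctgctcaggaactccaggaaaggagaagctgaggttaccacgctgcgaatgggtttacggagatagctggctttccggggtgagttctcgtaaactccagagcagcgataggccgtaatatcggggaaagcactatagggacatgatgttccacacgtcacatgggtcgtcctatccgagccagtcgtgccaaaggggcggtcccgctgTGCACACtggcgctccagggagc

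Mt2, chr8:94172368-94172617: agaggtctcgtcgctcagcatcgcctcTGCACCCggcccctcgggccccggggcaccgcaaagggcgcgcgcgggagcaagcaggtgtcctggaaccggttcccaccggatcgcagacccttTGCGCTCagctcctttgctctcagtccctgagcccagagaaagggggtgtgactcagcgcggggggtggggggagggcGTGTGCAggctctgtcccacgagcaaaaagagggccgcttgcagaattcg

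The Mt2 window held 3 matches and the Mt1 window 1. Sequence past these RefSeq starts was not searched, so the counts do not give the number of elements in either promoter. Of 32851 RefSeq windows of this length, 21.4% held at least 1 and 1.26% at least 3. Slc30a10 also had 3 matches and Slc30a1 had 1, and Slc39a5 had 1 before its upstream start and 0 before the other. Slc39a8 had 1 in one of its 2 windows and 0 in the other. Slc39a4 and Slc39a14 were not searched. These are matches of letters, not measured binding.

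Slc30a1, the zinc exporter of the plasma membrane, did not pass in any comparison. At ILMN_1224883 (chr1:193733701-193733750) DSS_WT samples were at 9.65, 9.02, 9.09 and 8.85, DSS_KO at 9.32, 9.09, 9.31 and 8.94, Naive_WT at 8.94, 9.32, 9.72 and 9.79, and Naive_KO at 9.35, 9.24, 9.77 and 9.72. All 4 groups overlapped. The genotype difference with DSS was 0.01 (-0.41 to 0.43), and in Mbd2KO the difference with DSS was -0.36 (-0.78 to 0.06, adjusted p = 0.284, limma). With median scaling the latter became 0.03 (-0.22 relative to the shift of all probes).

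Slc30a10, which exports manganese, had the largest SDs of the 14 tested probes within the Mbd2KO groups. At ILMN_2812926 (position 5511) Naive_KO samples were at 6.79, 10.07, 8.25 and 6.51, and DSS_KO samples at 5.44, 5.20, 8.24 and 7.53, on both sides of the naive WT values. The 4 Naive_WT samples were tight, at 7.03, 6.44, 6.71 and 6.57, and DSS_WT samples were at 6.07, 7.06, 6.29 and 5.39. The SDs were 1.63 in Naive_KO and 1.51 in DSS_KO, against 0.25 and 0.69 in the WT groups. The order of the group means was Naive_KO (7.90), Naive_WT (6.69), DSS_KO (6.60) and DSS_WT (6.21), and the difference of Mbd2KO from WT without DSS was 1.22 (-0.27 to 2.71, adjusted p = 0.319, limma). Without Naive_KO replicate 14, the highest sample, it was 0.50. The high samples were also high at ILMN_1243252 (position 1555), where Naive_KO was at 4.75, 6.84, 5.68 and 4.81 (r = 0.93 between the probes over 16 samples). ILMN_1243252 was not detected on any of the 5 DSS_WT arrays, on 1 of 4 Naive_WT arrays and on 2 arrays in each Mbd2KO group. ILMN_1224416 (position 380) was not detected on any of the 18 arrays.

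One more probe, ILMN_2445236, carries E130106K10Rik, an older name of Slc30a10, and lies outside the rule. Its Naive_KO samples were at 5.67, 7.23, 6.09 and 5.24, again highest in replicate 14. The genes whose probes were most like ILMN_2812926 were Cd247 (r = 0.927), a chain of the T cell receptor complex, Olfr618 (0.861) and Trpv6 (0.838), an epithelial calcium channel. This probe was chosen for the comparison after its values had been seen.

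Slc39a8 and Slc39a14, importers that also carry manganese and iron, were dim. Slc39a8 at ILMN_2719513 was detected on all 18 arrays, at 5.19 to 5.91 in DSS_WT, 5.40 to 6.46 in DSS_KO, 5.66 to 6.16 in Naive_WT and 5.46 to 7.03 in Naive_KO, and its second probe ILMN_2729683 on 11 arrays. The genotype difference with DSS was 0.45 (-0.18 to 1.08) and 0.16 (-0.31 to 0.63) at these 2 probes. Slc39a14 was detected on 8 arrays at ILMN_1214514 and 11 at ILMN_2711839, with all samples between 4.54 and 5.70. Its probes did not follow each other (r = 0.13), and ILMN_1214514 ran against the index (r = -0.80). The genotype difference with DSS was -0.33 (-0.75 to 0.09) and 0.07 (-0.33 to 0.48), and all groups overlapped at both genes.

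**Figure D4:**
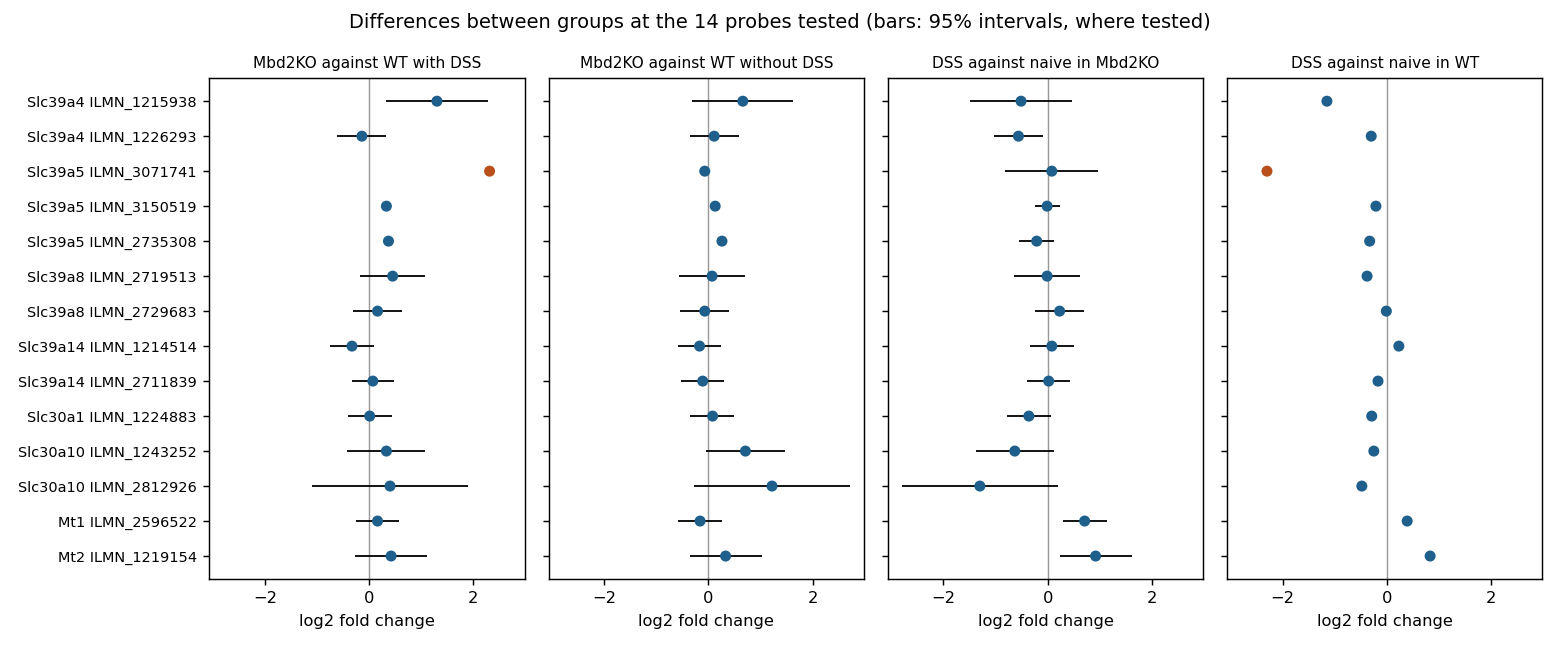
Log2 fold change of the 14 tested member probes in 4 comparisons, with 95% intervals where a test is given and points alone for DSS in WT and for Slc39a5 between genotypes. Orange marks values past the threshold, which are ILMN_3071741 at 2.31 between genotypes with DSS and at -2.30 with DSS in WT, both a description of the probe selected on those samples.

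Across the 14 probes the median log2 fold change was 0.33 for Mbd2KO against WT with DSS, beside 0.00 over all tested probes. It was 0.10 without DSS, -0.01 for DSS in Mbd2KO and -0.27 for DSS in WT, beside 0.00, -0.02 and -0.01 over all probes. Except for DSS in Mbd2KO, these medians include Slc39a5 probes on the samples that selected the gene. They are given as a description, and nothing is read from them. Without DSS no member probe was called between genotypes, against 0.656% of all probes, nor did any pass an adjusted p below 0.05, against 5.19%, and 0 had an unadjusted p below 0.05 in the limma fit, against 22.8%.

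Of 14 tested probes of 9 other ZIP importers and 8 probes of 6 other ZnT exporters, none was called in any comparison, and neither was any of 7 probes of other metallothioneins and zinc-responsive genes. At an adjusted p below 0.05, 1 ZIP probe was higher between genotypes with DSS (5.63% of all probes). With DSS in WT 1 was higher and 1 lower (10.5%), and in Mbd2KO 1 was lower (9.42%). The ZIP values ran from -0.39 to 1.53 between genotypes with DSS and from -1.24 to 0.48 with DSS in WT. Of the 7 probes, 1 was lower between genotypes with DSS and 1 without (5.63% and 5.19%). Before adjustment, the 14 other ZIP probes included 2 with p below 0.05 for genotype with DSS (14.3%, against 22.2% of all probes) and 4 for DSS in Mbd2KO (28.6%, against 24.5%) in the limma fit. The 8 other ZnT probes included 0 in both, and the 7 remaining probes 1 and 2. Between genotypes without DSS these counts were 3 of 14, 2 of 8 and 3 of 7 (21.4%, 25% and 42.9%, against 22.8% of all probes). All 7 of the last list had negative log2 fold changes there, from -0.63 to -0.01 with a median of -0.48, and none was called. Among 33 probes of 20 genes of iron, copper and manganese handling, 3 were called with DSS in Mbd2KO, where 1.72% of all probes were, and 1 with DSS in WT, where 1.74% were, all higher. They were Cp (ILMN_3083163, log2 fold change 1.18, adjusted p = 0.00373, limma), the copper-carrying ferroxidase ceruloplasmin, and Slc11a1 (ILMN_2675811, 1.59, adjusted p = 0.000587; ILMN_2983516, 1.12, adjusted p = 0.00652), a metal transporter of phagocytes. In WT, ILMN_2983516 of Slc11a1 was higher with DSS by 1.50. The macrophage and monocyte markers given above were higher with DSS in the Mbd2KO samples. In WT they were at 6.17 to 6.75 in Naive_WT and 7.50 to 8.26 in DSS_WT. Their part in the Slc11a1 values was not tested.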

How the data were processed

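The deposited table holds, per the file headers, GenomeStudio summaries without normalisation or background subtraction: for each probe and array a mean intensity, a detection p-value, a bead standard error and a bead number. The submitters' processing notes name lumi and limma without versions. Here, limma 3.58.1 in R 4.3.3 corrected the deposited intensities by normexp on 936 negative controls (offset 16), quantile-normalised and log2-transformed them. The filter asked for detection at 0.05 on 4 or more arrays and left 21938 of 45281 probes (48.4%). Repeat arrays differed from their partners by SDs of 0.194 and 0.236, less than other pairs of their groups (at least 0.287), and were averaged.

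The fit had 1 mean per group (16 samples) and empirical Bayes moderation, with Benjamini-Hochberg adjustment within each of 5 contrasts over all tested probes. A probe was called at an adjusted p under 0.01 and an absolute log2 fold change of 1 or more. The fit was tested on simulated data. The methods call the replicates biological, each of 1 or several mice, and the mice behind each sample are not listed in the sources used here. Member probes rested on 20 to 68 beads per array, with bead standard errors of 1.86% to 7.54% of the intensity. The number of arrays limits the precision.

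All member probes are accounted for. Genes of other zinc and metal lists are named where a probe was called, at most 5 per list, and similar genes are the 3 with the highest Pearson's r to a called member probe or the brightest Slc39a5 probe. Members and lists were chosen with earlier results of these data known. Alternatives changed the background correction, normalisation, offset, filter, repeat arrays, samples in the fit and each replicate. The 5′-to-3′ index as a covariate and the fit without DSS_WT replicates 2 and 4 were chosen after seeing the data.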

Additional observations from a re-analysis of the deposited data

Results flagged for a closer look

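Among 56 sets of 4 samples (14 member probes in 4 groups), 3 held 1 sample far from the other 3 by Dixon's criterion, and chance marks about 1 set in 20. Slc39a5 at ILMN_3150519 was 9.78 in DSS_KO replicate 6, against 9.98 to 9.99 in the others of its group. Slc39a8 at ILMN_2719513 was 7.03 in Naive_KO replicate 15, against 5.46 to 5.72, and this sample also had the highest 5′-to-3′ index, 0.268. Slc39a8 at ILMN_2729683 was 5.50 in Naive_WT replicate 9, against 4.84 to 4.94. The cause of these values was not tested.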

How the results depend on the processing

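The member probe past the threshold between genotypes with DSS and for DSS in WT, both a description since its selection used these samples, was ILMN_3071741 of Slc39a5 in each case. The count of 1 became 0 in both comparisons without background correction, without the detection filter, with only the compared groups in the fit, with the 5′-to-3′ index as a covariate and without DSS_WT replicates 2 and 4. Leaving out 1 replicate gave counts of 0 to 1 in both. Its log2 fold change kept its sign under 26 alternatives, from 1.09 to 2.71 between genotypes with DSS and from -2.71 to -1.12 for DSS in WT, with the smallest sizes without background correction. The count for DSS in Mbd2KO rose from 0 to 1 (Mt2) with median scaling. No member probe was called without DSS or in the interaction under any alternative. The change in the Slc39a5 probe difference in Mbd2KO lay between 0.15 and 0.37. Uncalled values changed sign under at least 1 alternative for 7 of 14 probes between genotypes with DSS, 7 without DSS, 6 for DSS in Mbd2KO, 7 for DSS in WT and 6 in the interaction. The largest of these was 1.30, at ILMN_1215938 of Slc39a4, which became -0.02 with the index as a covariate. The methods mention littermate controls and separate experiments, but the labels used here link no sample to either. No analysis by pair or by experiment could therefore be run. A BeadChip block was not run, since neither labels nor headers used here name the chip of each array. Slc39a14, Slc39a8 and 2 of the Slc30a10 probes lay near background, which limits what could be detected there. The cause of these changes was not tested.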
